A study of Mus musculus with 30 samples.

Results

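Transcript levels of 32 genes of lipogenesis and triglyceride synthesis were followed in the inguinal white fat depot (iWAT), the interscapular brown fat depot (iBAT) and the liver. The mice were WT or LFABP-/-, which lack the liver fatty acid-binding protein encoded by Fabp1 in every tissue. The 32 genes were taken by symbol from a list of the pathway, and all 32 were found among the 41549 genes of the table. All mice were male and of a C57Bl/6J background, were placed at 2 months of age on a diet high in saturated fat, with 45% of its energy as fat, for 12 weeks, and were fasted for 4 h before tissues were taken. The same 10 mice, 5 of each genotype, gave all 3 tissues, so each of the 6 groups of tissue and genotype held 5 libraries and the 30 libraries came from 10 animals. Which libraries share a mouse rests on the mouse number in the library names alone, and for 3 of the 10 mice (WT replicates 4 and 5 and LFABP-/- replicate 2) the prefix before that number was another one in iWAT than in iBAT and liver. A low-fat diet group was not analysed here, so every difference below is between genotypes on the same high-fat diet. Whether WT and LFABP-/- mice were littermates is not given in the sources used here. A depot sampled whole holds several cell types, and fewer cells of a type and less RNA per cell cannot be told apart in such libraries.

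As background, fatty acid synthesis starts from citrate, which the carrier Slc25a1 moves out of mitochondria and Acly splits to acetyl-CoA, while Acss2 makes acetyl-CoA from acetate, Aacs activates acetoacetate and Me1 supplies NADPH. The acetyl-CoA carboxylases Acaca and Acacb make malonyl-CoA, Fasn joins these units to palmitate, the elongases of the Elovl family lengthen the chain and the Fads desaturases add double bonds to polyunsaturated fatty acids. Srebf1 and Mlxipl (which encodes ChREBP) are transcription factors that induce many of these enzymes after feeding, and Thrsp is a lipogenic nuclear protein that follows them. Triglyceride is then built on glycerol 3-phosphate, which Gpd1 makes, by the successive acyltransferase and phosphatase steps of Gpam, the Agpat enzymes, the lipins and Dgat1 or Dgat2, with Mogat1 entering from monoacylglycerol. White fat stores triglyceride, brown fat synthesises and burns fatty acids in thermogenesis, and liver exports part of what it makes.

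Values are on the TPM scale, which divides by gene length and gives every library about the same sum, and differences are given on log2(value + 0.5), LFABP-/- minus WT, ± SE. Every library summed to between 999967.3 and 999996.4. Tests were run in limma on all genes with a mean of at least 1 in that tissue, and calls needed an adjusted p under 0.1. Tissue identity was as labelled, since Adipoq ranged from 3254.2 to 6360.0 in iWAT and from 0.8 to 7.6 in liver, Ucp1 from 4243.4 to 7684.1 in iBAT, and Alb from 41266.2 to 76918.6 in liver. Fabp1 in liver was 9165.5 to 12697.6 in WT and 0.2 to 51.8 in LFABP-/- mice. The iWAT library labelled LFABP-/- replicate 1 went against its label, with Fabp1 at 196.1 where WT libraries had 1.9 to 23.9, while the other LFABP-/- libraries had 0.2 to 0.9. It also had the highest hepatocyte marker level in iWAT (mean log2 of 12 genes, 6.27 against 0.94 to 4.09 in the others). In iBAT, where Fabp1 was 0.2 to 8.7 in WT and 0.4 to 21.2 in LFABP-/- libraries, it was above every WT library in those labelled LFABP-/- replicates 3, 4 and 5, so it gives no check of the labels there. In iBAT the hepatocyte markers moved with the genotype. Their mean log2 was -0.29 to 2.16 in WT and 2.91 to 5.90 in LFABP-/- libraries without overlap, and 11 of the 11 that could be tested were higher. Lymphocyte markers were above 3 (mean log2 of 19 genes) in WT replicates 3 and 4 and LFABP-/- replicates 2, 3 and 4 of iWAT. In iWAT, LFABP-/- replicate 2 also stood apart in Ucp1 (962.3) and replicate 4 in skeletal muscle markers (7.64). Skeletal muscle markers ranged from 3.55 to 10.37 in iBAT, where 0 of 20 were called by limma (0 at an unadjusted p under 0.05). Nnt (the first of 2 rows of that name, the other at 0), a gene that differs between C57BL/6 substrains, was 5.5 to 7.9 in WT and 11.4 to 17.2 in LFABP-/- iWAT, and 12.9 to 25.9 in WT and 35.4 to 44.9 in LFABP-/- liver, without overlap in either. In iBAT it was 0.6 to 1.8 in WT and 0.8 to 5.3 in LFABP-/- libraries, which overlapped. Genetic background and genotype cannot be told apart.

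In WT mice the 32 genes together held 0.907 ± 0.24% of the transcript value of iWAT, 1.14 ± 0.165% of that of iBAT and 0.634 ± 0.081% of that of liver (mean ± SD, n = 5), but different genes carried that share in each tissue. Mitochondrially encoded transcripts held 54.4 to 60.1% of the value in WT iBAT, 13.3 to 20.6% in WT iWAT and 12.1 to 15.1% in WT liver. They lower all other shares in a library, so levels and totals compared between tissues depend on this scale. In WT iWAT the highest were Dgat2 (1453 ± 752), Gpd1 (1413 ± 456) and Fasn (1368 ± 510.5), whose ranges over mice overlapped one another. In WT iBAT Gpd1 (3974 ± 585) stood above Fasn (2208 ± 533) and Fasn above Thrsp (972 ± 147), each without overlap. WT liver instead was led by Fads2 (1543 ± 293), the delta-6 desaturase, without overlap with Fads1 (657 ± 108), the delta-5 desaturase, which overlapped with Elovl2 (603 ± 99.8) and Elovl5 (512 ± 117), the elongases of polyunsaturated fatty acids. Fads3, a desaturase related to them, was highest in iWAT, at 428 ± 127 against 8.42 ± 3.66 in iBAT and 19.5 ± 6.48 in liver. Pnpla3, a lipase and acyltransferase of lipid droplets, was 365 ± 139 in iWAT, 148 ± 40.7 in iBAT and 3.38 ± 1.57 in liver. Its direction between iBAT and iWAT turned under another scaling, as given below. Elovl7 had a mean under 1 in every tissue, at most 1.4 in any library, and entered no main test, so 31 of the 32 genes were tested in each tissue.

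In a limma fit of all 30 libraries, 6 of 31 genes were higher in WT liver than in WT iWAT by over 1 on the log2 scale (9.84% of all genes) and 16 were lower (57.6% of all genes). Against WT iBAT, liver was higher for 7 (20% of all genes) and lower for 12 (16.8% of all genes). The 5 genes higher in WT iBAT than in WT iWAT stood beside 4.23% of all genes, and the 12 lower ones beside 65.2%. The median of all genes was itself shifted, by -1.18 for liver minus iWAT, 0.08 for liver minus iBAT and -1.32 for iBAT minus iWAT, so single genes are best read against those shifts. Under median-ratio scaling, which brought these medians to 0.00, 0.00 and -0.08, the balance of the calls changed. For iBAT against iWAT 12 genes were then higher (13.7% of all genes), with Acly, Acaca, Fasn, Thrsp, Agpat1, Agpat2 and Agpat3 added to the 5, and 3 were lower (17.4% of all genes), namely Elovl1, Fads1 and Fads3. Of the 17 calls between these depots, 8 remained. For liver against iWAT 10 were then higher (20.4% of all genes), with Acss2, Elovl6, Gpam and Agpat3 added, 8 were lower (22.6% of all genes), and 14 of the 22 calls remained. All 19 calls for liver against iBAT remained. With values rescaled without mitochondrial genes, where Elovl7 also passed the filter, 11 of 32 genes were higher in iBAT than in iWAT (9.14% of all genes). There 6 were lower (29.2% of all genes). For liver against iBAT 6 were then higher (12.2% of all genes) and 18 lower (40.8% of all genes). The median of all genes in that setting was -0.51 for iBAT minus iWAT and -0.77 for liver minus iBAT. In the values as deposited, the steepest differences were in the polyunsaturated branch, where Elovl2 was 9.77 ± 0.55, Fads2 8.62 ± 0.34 and Fads1 7.28 ± 0.25 (log2 difference ± SE) higher in liver than in iBAT. Elovl2 was at most 0.4 in WT iBAT, under the 0.5 added before the log, so the size of its difference depends on that constant. Lpin2, a phosphatidate phosphatase, was also higher in liver than in iBAT (5.18 ± 0.20). In the opposite direction Fasn differed by -3.95 ± 0.38, Gpd1 by -3.86 ± 0.20, Pnpla3 by -5.29 ± 0.44 and Acaca by -2.73 ± 0.28. Elovl6, which elongates palmitate, was higher in iBAT than in iWAT (2.79 ± 0.37), and Fads3 lower (-5.64 ± 0.30). Under median-ratio scaling 4 genes called between iBAT and iWAT turned direction (Elovl5, Lpin2, Me1 and Pnpla3), as did Srebf1 between liver and iWAT, so the direction of these is not given as a result.

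In iBAT, the tissue with the most calls among the 31 genes, many steps of the pathway differed between genotypes. There 15 of 31 genes were higher in LFABP-/- mice, beside 22.3% of all genes, and 6 were lower, beside 25.5% of all genes. Elovl2 entered the test in iBAT only through its LFABP-/- values, so a difference was built into its selection by the filter, and without it 14 of 30 were higher. The higher set held genes of acetyl-CoA and NADPH supply (Slc25a1, Acly, Acss2, Me1), Thrsp, all 3 desaturases, 2 elongases (Elovl2 and Elovl5), and Gpd1, Agpat2, Lpin1, Lpin2 and Dgat1 of triglyceride assembly. The lower set held Aacs, Acacb, Mlxipl, Gpam, Lpin3 and Mogat1. Over the 31 genes the median log2 difference was 0.39, beside -0.03 over all genes tested. Together the 32 genes held 1.65 ± 0.263% of the value in LFABP-/- iBAT (1.40 to 2.06% over mice) against 0.874 to 1.28% in WT, without overlap.

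**Figure D1:**
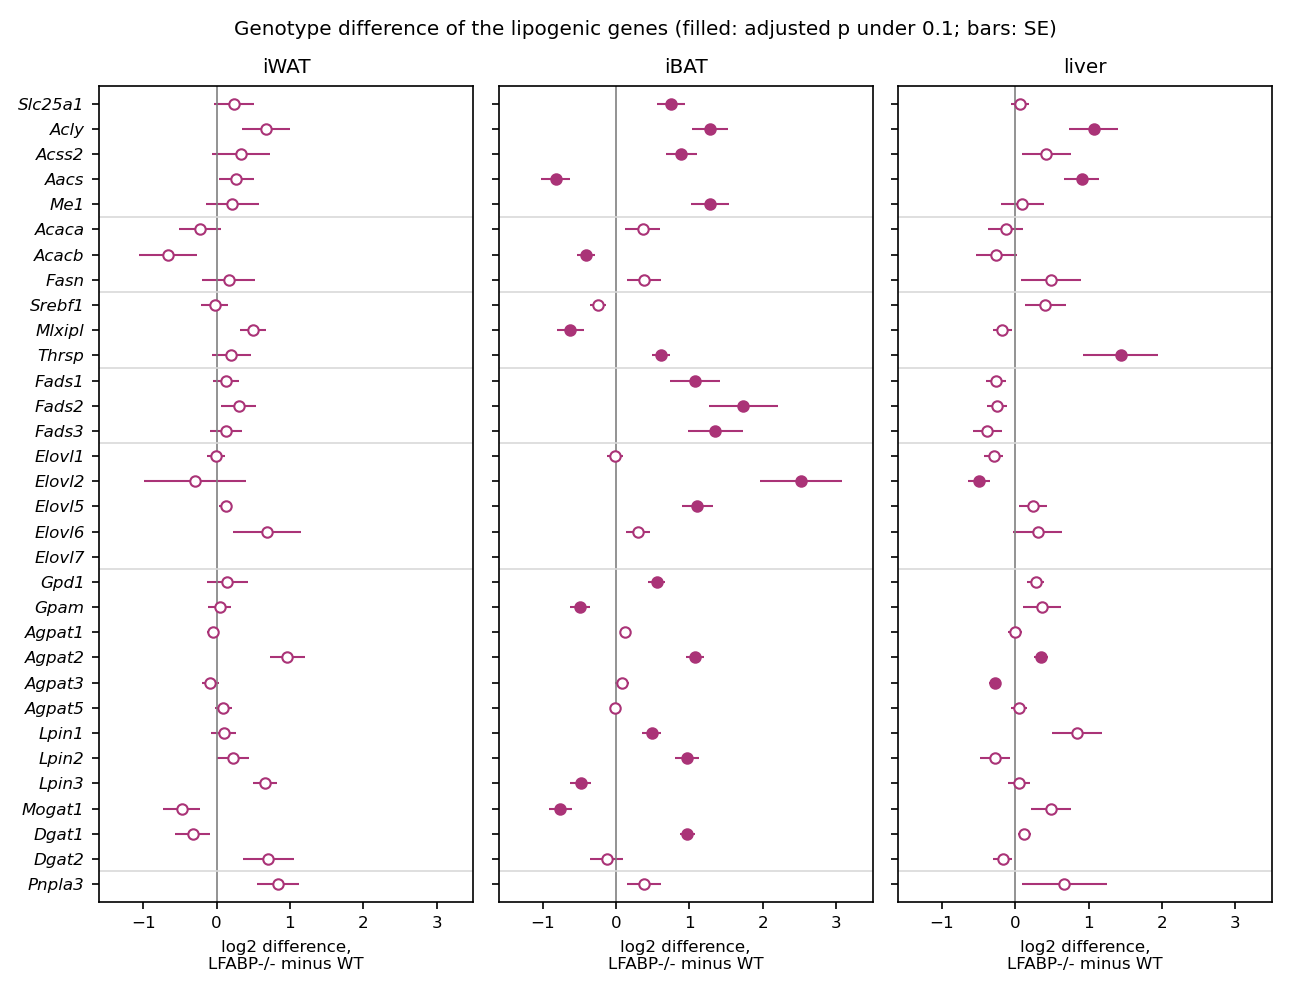
Log2 difference, LFABP-/- minus WT, of log2(value + 0.5) on the x axis for each of the 31 tested genes on the y axis, grouped by role, with iWAT, iBAT and liver in separate panels, bars for the standard error from limma and filled points for an adjusted p under 0.1. No point is filled in iWAT, 21 are filled in iBAT on both sides of 0, and 6 are filled in liver, with Agpat2 to the right of 0 in all panels.

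The genes that supply acetyl-CoA and NADPH to the cytosol were higher in LFABP-/- iBAT, and Aacs was the exception. Acly (ENSMUSG00000020917, chr11:100476353-100528000, GRCm38), ATP citrate lyase, was 534.3, 484.4, 467.7, 338.9 and 245.1 in the WT libraries and 1512, 738.8, 816.3, 1038.2 and 907.8 in the LFABP-/- libraries. Every LFABP-/- library lay above every WT library, with a log2 difference of 1.28 ± 0.24 and an adjusted p of 0.00283. Me1 (ENSMUSG00000032418, chr9:86581371-86695953), the cytosolic malic enzyme, was 208, 316.4, 237.1, 125.3 and 218.8 in the WT libraries and 769.1, 611.6, 439.1, 480.3 and 368.8 in the LFABP-/- libraries. It also did not overlap, at 1.28 ± 0.25 and an adjusted p of 0.00343. Slc25a1, the mitochondrial citrate carrier, was 329.2, 383.4, 351.2, 248.3 and 228.9 in the WT libraries and 726, 398.5, 490.3, 564.7 and 422.7 in the LFABP-/- libraries, with a difference of 0.75 ± 0.19 (adjusted p = 0.0114) and no overlap. Acss2, the acetate-activating enzyme, was 64.2, 58.3, 52.5, 31.2 and 35.2 in the WT libraries and 116.8, 78.7, 78.1, 84.1 and 81.1 in the LFABP-/- libraries. Its LFABP-/- replicate 1 stood above the other 4, which lay within 78.1 to 84.1, and the difference was 0.89 ± 0.21 (adjusted p = 0.0072). Aacs (ENSMUSG00000029482, chr5:125475814-125517410), which activates the ketone body acetoacetate for lipid synthesis, went the other way, at 81.3, 85.5, 95.3, 90.4 and 102.5 in the WT libraries and 73.1, 31.5, 55.1, 42.7 and 63.9 in the LFABP-/- libraries. All 5 LFABP-/- values lay below the lowest WT value, with a log2 difference of -0.82 ± 0.20 and an adjusted p of 0.00888.

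Of the 3 enzymes that make malonyl-CoA and palmitate, only Acacb was called in iBAT, and it was lower. Fasn, fatty acid synthase, was 2606.3, 2857.6, 2207.3, 1739 and 1627.9 in the WT libraries and 4654.9, 2063, 2776, 2978.3 and 2257.7 in the LFABP-/- libraries, and the highest value in each genotype was 4654.9 in LFABP-/- replicate 1 and 2857.6 in WT replicate 2. The groups overlapped, and the difference of 0.39 ± 0.23 did not pass (adjusted p = 0.21). Acaca, the cytosolic acetyl-CoA carboxylase, likewise overlapped, at 151 ± 36.9 in WT and 198 ± 73.1 in LFABP-/- mice (SD, n = 5; adjusted p = 0.261). Acacb, the carboxylase at the mitochondrial surface whose product restrains fatty acid oxidation, was 325.2, 353.1, 295.9, 285.2 and 288.8 in the WT libraries and 301.7, 254.3, 221.2, 199.1 and 199.8 in the LFABP-/- libraries. LFABP-/- replicate 1 lay within the WT range and the others below it, with a difference of -0.41 ± 0.12 (adjusted p = 0.0204). Elovl6, the elongase of palmitate, was 150.4 ± 18.3 in WT and 189 ± 52.7 in LFABP-/- mice (SD, n = 5; adjusted p = 0.161).

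Of the regulators, the transcription factors did not rise with the supply genes. Mlxipl was 93.7, 95, 90.5, 86.7 and 63 in the WT libraries and 68.9, 34.9, 55.5, 62.2 and 60.3 in the LFABP-/- libraries. WT replicate 5 fell within the LFABP-/- range and the other 4 WT values lay above it, with a log2 difference of -0.62 ± 0.18 and an adjusted p of 0.0209. Srebf1 was 82.1, 73.1, 91.6, 74.8 and 61.1 in the WT libraries and 71.2, 61.6, 63.4, 69.8 and 54.8 in the LFABP-/- libraries, which overlapped, with a difference of -0.25 ± 0.11 at an adjusted p of 0.102 just above the threshold. Thrsp (ENSMUSG00000035686, chr7:97412938-97417730), the small lipogenic nuclear protein, was 946.9, 1147.8, 1095.3, 873.4 and 799.1 in the WT libraries and 1841.8, 1371.5, 1382.8, 1522.8 and 1314.7 in the LFABP-/- libraries. Its groups did not overlap, at 0.61 ± 0.12 and an adjusted p of 0.00333.

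**Figure D2:**
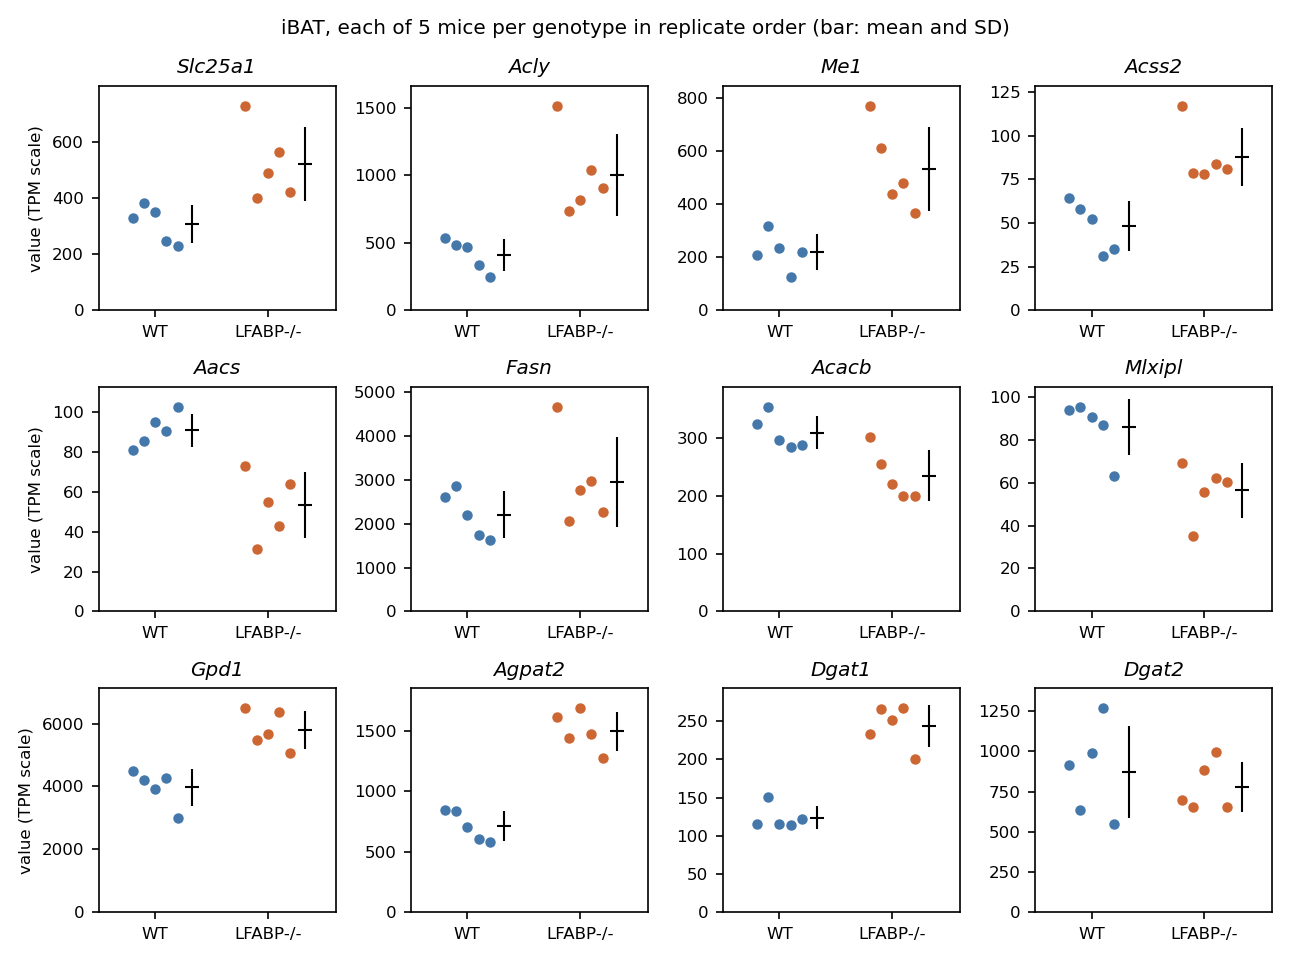
Value on the TPM scale (y axis, from 0) in each iBAT library of WT and LFABP-/- mice for 12 genes, with points in replicate order and the mean and SD over 5 mice beside them. The groups do not overlap for Slc25a1, Acly, Me1, Acss2, Aacs, Gpd1, Agpat2 and Dgat1, and they overlap for Fasn, Acacb, Mlxipl and Dgat2.

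In triglyceride assembly the enzymes of 1 step moved apart from each other in iBAT. Gpd1, which makes glycerol 3-phosphate, was 4500.3, 4190.8, 3923.8, 4262.3 and 2993.6 in the WT libraries and 6479.8, 5462, 5655, 6360.5 and 5066.2 in the LFABP-/- libraries. These did not overlap, with a difference of 0.55 ± 0.12 (adjusted p = 0.0043). Gpam, the mitochondrial acyltransferase of the first step, was 211.9, 210.7, 152.3, 159.2 and 155.6 in the WT libraries and 117.6, 159, 117.4, 109.5 and 127.7 in the LFABP-/- libraries. It was lower by limma, at -0.49 ± 0.13 (adjusted p = 0.0141), with LFABP-/- replicate 2 inside the WT range. Agpat2 (ENSMUSG00000026922, chr2:26593057-26604417), the acyltransferase of the second step whose loss causes lipodystrophy, was 847.7, 839, 705.6, 607.8 and 582.3 in the WT libraries and 1617, 1445.9, 1686.6, 1472.3 and 1273 in the LFABP-/- libraries. The lowest LFABP-/- value stood well above the highest WT value, and the difference was 1.08 ± 0.12 with an adjusted p of 0.000215. Its relatives Agpat1, Agpat3 and Agpat5 had log2 differences of 0.13, 0.09 and -0.01 and passed no test.

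The final steps showed the same unevenness. Dgat1 (ENSMUSG00000022555, chr15:76502015-76511953), which esterifies diacylglycerol in the endoplasmic reticulum, was 115.6, 151.4, 116.2, 114.7 and 122.2 in the WT libraries and 233.7, 266.2, 251.6, 266.7 and 200.7 in the LFABP-/- libraries. No library overlapped, and its difference of 0.97 ± 0.10 had the smallest adjusted p of the 31 genes in iBAT (0.000152). Dgat2, the unrelated enzyme of the same reaction, was 914.6, 637.4, 991.7, 1265.6 and 549.4 in the WT libraries and 698.6, 655.4, 881, 995.6 and 654.7 in the LFABP-/- libraries, overlapping throughout, with a difference of -0.12 ± 0.22 (adjusted p = 0.693). Among the lipins, phosphatidate phosphatases that give diacylglycerol, Lpin1 was 75.6, 57.7, 74.9, 101.3 and 64.3 in the WT libraries and 104.6, 100.2, 103.9, 112.1 and 95.5 in the LFABP-/- libraries. It was higher (0.49 ± 0.13, adjusted p = 0.0139), with WT replicate 4 inside the LFABP-/- range. Lpin2 was low but did not overlap, at 2.9, 2.4, 2.1, 1.6 and 1.7 in the WT libraries and 4.9, 5.2, 4.9, 5.1 and 3.1 in the LFABP-/- libraries, a difference of 0.96 ± 0.17 (adjusted p = 0.00162). Lpin3 was 2.9, 2.5, 2.7, 3.7 and 2.4 in the WT libraries and 2, 2, 1.5, 2.5 and 1.5 in the LFABP-/- libraries and was lower (-0.48 ± 0.14, adjusted p = 0.0205), with LFABP-/- replicate 4 inside the WT range. Mogat1, monoacylglycerol acyltransferase, was 6.8, 10.4, 6.9, 6.9 and 10.6 in the WT libraries and 5.8, 4.6, 4.3, 4.8 and 3.8 in the LFABP-/- libraries, lower without overlap (-0.76 ± 0.15, adjusted p = 0.00395). Pnpla3 was 148 ± 40.7 in WT and 189 ± 33.9 in LFABP-/- mice (SD, n = 5) and did not pass (adjusted p = 0.209). The 10 tested genes of iBAT that were not called had differences between -0.25 (Srebf1) and 0.39 (Fasn), with Elovl1, an elongase of saturated fatty acids, at -0.01.

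All 3 desaturases and 2 elongases were higher in LFABP-/- iBAT, but for 3 of these 5 genes the rise followed the hepatocyte markers library by library. Elovl2 (ENSMUSG00000021364, chr13:41182381-41220405) was 0.3, 0.1, 0.0, 0.2 and 0.4 in the WT libraries and 6.1, 7.9, 7.9, 1.2 and 0.7 in the LFABP-/- libraries (log2 difference 2.52 ± 0.56, adjusted p = 0.00568). Fads2 was 4.1, 3.6, 3.6, 3.2 and 2.5 in the WT libraries and 19.9, 24.8, 23.2, 6.1 and 3.9 in the LFABP-/- libraries (1.74 ± 0.47, adjusted p = 0.0154). Fads1 was 4.5, 3, 4.6, 3 and 3.6 in the WT libraries and 10.5, 14.1, 13.2, 5.3 and 3.7 in the LFABP-/- libraries (1.08 ± 0.34, adjusted p = 0.0274). For each of them LFABP-/- replicates 1, 2 and 3 were far above replicates 4 and 5, and these 3 libraries were also those with a mean log2 of hepatocyte markers above 5.

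The hepatocyte markers allow that comparison to be put in numbers. In each iBAT library the median ratio of the 12 markers to the liver of the same mouse was taken, which gave 0.059, 0.0016, 0.0039, 0.0326 and 0.0705% in WT and 1.26, 1.91, 1.6, 0.338 and 0.169% in LFABP-/- mice. Multiplying this ratio by the liver value of Elovl2 in the same mouse gave 5.81, 8.53, 6.51, 1.1 and 0.845 in the LFABP-/- mice, beside measured iBAT values of 6.1, 7.9, 7.9, 1.2 and 0.7. For Fads2 the products were 15.4, 26.5, 19.2, 4.11 and 2.35, beside 19.9, 24.8, 23.2, 6.1 and 3.9. With the products subtracted from every gene, an alternative chosen after seeing the data, Fads2 was 2.85 ± 0.946 in WT and 2.4 ± 1.83 in LFABP-/- mice (SD, n = 5), a log2 difference of -0.52 ± 0.56 with an adjusted p of 0.49. Fads1 was then 3.51 ± 0.78 in WT and 3.76 ± 0.951 in LFABP-/- mice, a difference of 0.08 ± 0.17 (adjusted p = 0.734). Elovl2 was left at 0.0195 ± 0.0387 in WT and 0.357 ± 0.592 in LFABP-/- mice and fell under the filter. The product did not reproduce Fabp1, which was 21.2, 15.0 and 13.1 in iBAT of LFABP-/- replicates 3, 4 and 5. In the livers of these mice Fabp1 was 0.3, 0.6 and 0.2. The source of the hepatocyte transcripts was not tested.

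The other 18 of the 21 genes remained called in the same direction after the subtraction. Over all genes, 2272 of 11418 were then called higher and 3203 lower. Elovl5, which is also abundant in liver, was 25.7, 32.4, 24.9, 20.6 and 40.7 in the WT libraries and 74.8, 76.7, 65.6, 41.7 and 54.3 in the LFABP-/- libraries, without overlap. Its difference of 1.11 ± 0.21 (adjusted p = 0.00265) became 0.99 ± 0.20 (adjusted p = 0.00332). Fads3, which is low in liver, was 11.7, 8.5, 12.4, 4.6 and 4.9 in the WT libraries and 33.3, 18.3, 18.3, 33 and 10.2 in the LFABP-/- libraries, and its difference of 1.36 ± 0.37 (adjusted p = 0.0162) became 1.35 ± 0.37 (adjusted p = 0.0163). Without the 3 libraries, which left 2 LFABP-/- libraries, 1002 of all 11559 genes tested were called higher and 1863 lower. Of the 21 genes, 14 were still called there (9 higher and 5 lower), among them Acly, Me1, Slc25a1, Thrsp, Gpd1, Agpat2, Dgat1, Elovl5, Aacs and Mogat1. Elovl2 fell under the filter, and 6 lost the call. Acss2 then had a log2 difference of 0.82 against 0.89 with all 5 libraries (adjusted p = 0.101 by limma), Lpin1 0.49 against 0.49 (adjusted p = 0.147), Lpin3 -0.435 against -0.48 (adjusted p = 0.185) and Fads3 1.19 against 1.36 (adjusted p = 0.179). Fads1 was at 0.24 against 1.08 (adjusted p = 0.469 by limma) and Fads2 at 0.48 against 1.74 (adjusted p = 0.158). With the marker level as a covariate, Agpat2 and Dgat1 stayed called and calls over all genes fell from 2595 higher and 2961 lower to 125 and 387. The marker level and the genotype do not overlap, so their parts cannot be told apart in that fit. The mean log2 of adipocyte markers was 7.47 to 7.92 in LFABP-/- and 8.04 to 8.25 in WT iBAT, with 1 of 10 higher and 3 lower. That of brown adipocyte markers was 7.87 to 8.45 against 7.01 to 7.53, with 4 of 8 higher, and the part of either list in these results was not tested.

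**Figure D3:**
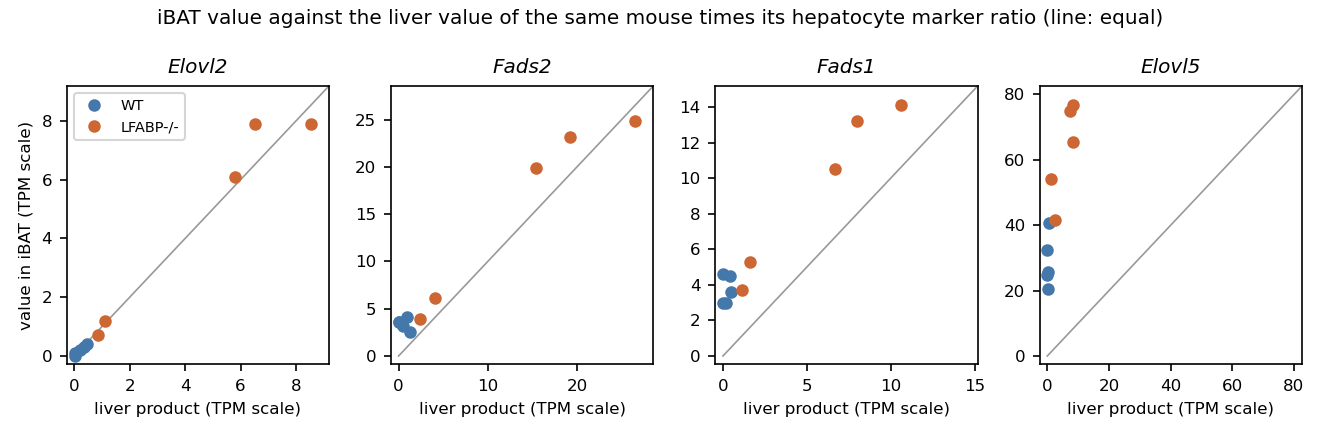
Value in each iBAT library (y axis) against the liver value of the same mouse multiplied by the median ratio of 12 hepatocyte markers (x axis), both on the TPM scale, for 4 genes, with a line where both are equal. Elovl2 and Fads2 lie near the line in the LFABP-/- libraries, Fads1 lies somewhat above it, and Elovl5 lies well above it in every library.

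In liver 4 of 31 genes were higher in LFABP-/- mice, beside 3.08% of all genes, and 2 were lower, beside 13.9% of all genes. The 4 were Acly, Aacs, Thrsp and Agpat2, and the 2 were Elovl2 and Agpat3. The median log2 difference was 0.10 over the 31 genes and -0.10 over all genes tested, and under median-ratio scaling, which moved the latter to 0.00, all genes split into 1158 higher and 834 lower calls in place of 358 and 1611. Of the genes followed here, 6 were then called higher and 0 lower. Gpd1 and Dgat1 were added to the 4 (adjusted p = 0.048 and 0.0794 by limma). Mitochondrially encoded transcripts held 16.9 to 18.1% of the value in LFABP-/- and 12.1 to 15.1% in WT livers, and the mean log2 of the hepatocyte markers was 11.5 to 11.7 against 11.8 to 12.1. Rescaled without the mitochondrial genes, Acly, Aacs and Agpat2 were still called and Thrsp, Elovl2 and Agpat3 were not (adjusted p = 0.111, 0.118 and 0.163 by limma).

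Acly in liver was 234.6, 107.8, 105.8, 152 and 125.3 in the WT libraries and 196.4, 170.9, 377.8, 268.8 and 610.2 in the LFABP-/- libraries. The groups overlapped through WT replicate 1, with a log2 difference of 1.07 ± 0.34 and an adjusted p of 0.0713. Aacs, the acetoacetate-activating enzyme that was lower in iBAT, was 60.1, 53.5, 39.3, 56.2 and 54 in the WT libraries and 103.2, 51.9, 105, 106.7 and 149.3 in the LFABP-/- libraries. LFABP-/- replicate 2 lay below some WT values and the others above all of them, with a difference of 0.90 ± 0.23 and an adjusted p of 0.0396. Thrsp was 636.6, 199.2, 376.8, 410.0 and 111.4 in the WT libraries and 467.7, 377.3, 924.6, 1163.6 and 1683.2 in the LFABP-/- libraries, with a wide spread in both genotypes, a difference of 1.44 ± 0.51 and an adjusted p of 0.097. Agpat2 was 145, 139.7, 163.2, 130.1 and 133.7 in the WT libraries and 176.1, 164, 217.4, 185.9 and 166.4 in the LFABP-/- libraries. Its values did not overlap, although the lowest LFABP-/- value (164.0) was close to the highest WT value (163.2), and the difference was 0.35 ± 0.10 (adjusted p = 0.0476).

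The genes that were lower in liver were an elongase and an acyltransferase. Elovl2, which elongates polyunsaturated fatty acids toward docosahexaenoic acid, was 610.3, 719.6, 449.1, 586 and 650.2 in the WT libraries and 460.3, 445.8, 406.6, 324.7 and 499.3 in the LFABP-/- libraries. WT replicate 3 lay within the LFABP-/- range and the other WT values above it, with a difference of -0.49 ± 0.14 (adjusted p = 0.0553). Agpat3, a lysophospholipid acyltransferase, was 99.5, 110.0, 89.2, 93.2 and 100.0 in the WT libraries and 81.8, 90.6, 79.6, 80.9 and 71.9 in the LFABP-/- libraries, with a difference of -0.28 ± 0.08 (adjusted p = 0.0589). Under median-ratio scaling their differences were -0.38 and -0.16 and neither passed (adjusted p = 0.124 and 0.231 by limma). Without WT replicate 2, only 1 of the 6 liver genes (Aacs) stayed called, and without LFABP-/- replicates 4 or 5 it was 2 and 3.

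Several genes with large mean differences in liver varied widely between mice and did not pass. Lpin1 was 70.4, 74.3, 59.9, 167.7 and 78.1 in the WT libraries and 171.8, 240.5, 80.5, 107.8 and 215 in the LFABP-/- libraries, with a difference of 0.84 ± 0.34 and an adjusted p of 0.135. Fasn was 221.5, 152.4, 86.2, 138 and 129.1 in the WT libraries and 124.1, 92.6, 329.4, 164.9 and 450.9 in the LFABP-/- libraries, where LFABP-/- replicates 3 and 5 were above all WT values and replicates 1 and 2 below 4 of the 5 WT values (adjusted p = 0.465). Pnpla3 was 5.9, 2.8, 3.2, 3.4 and 1.6 in the WT libraries and 4.3, 1.5, 5.6, 3.4 and 27.7 in the LFABP-/- libraries, and its highest value was again that of LFABP-/- replicate 5. The same mouse also had the highest liver value of Acly, Aacs, Me1, Acaca, Fasn, Elovl6, Thrsp and Acss2. Fads1 and Fads2, the leading genes of WT liver together with Elovl2, were 657 ± 108 in WT and 545 ± 72.2 in LFABP-/- mice and 1543 ± 293 in WT and 1282 ± 95.2 in LFABP-/- mice (SD, n = 5), and neither passed (adjusted p = 0.231 and 0.255). The 25 tested genes of liver that were not called had differences between -0.38 (Fads3) and 0.84 (Lpin1).

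**Figure D4:**
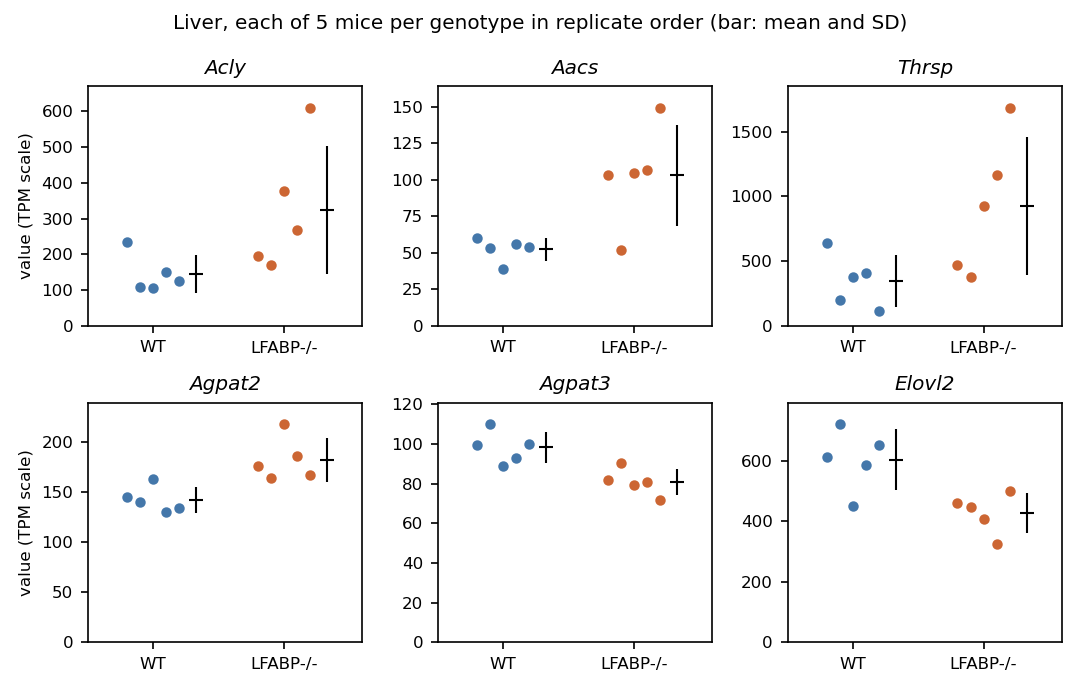
Value on the TPM scale (y axis, from 0) in each liver library of WT and LFABP-/- mice for the 6 genes called in liver, with points in replicate order and the mean and SD over 5 mice beside them. Agpat2 is the only one of the 6 whose groups do not overlap, and Acly, Aacs and Thrsp are highest in LFABP-/- replicate 5.

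In iWAT 0 of 31 genes were called by limma, where 1.45% of all genes were called in either direction. Of the 31, 22 had a positive difference, beside 8893 of all 14668 genes tested. At an unadjusted p under 0.05, 4 of the 31 were found, beside 10.4% of all genes, and the exact permutation test (smallest possible p = 0.00794) gave p under 0.05 for Agpat2, Lpin3, Mlxipl and Pnpla3. Agpat2 was 560.8, 444.9, 330.2, 284.4 and 516.7 in the WT libraries and 965.2, 858.4, 652.7, 560.8 and 1136.8 in the LFABP-/- libraries. The groups met at 560.8, the highest WT and the lowest LFABP-/- value, with a log2 difference of 0.97 ± 0.24 (adjusted p = 0.136 by limma, exact permutation p = 0.0159). Lpin3 was 13.6, 10.9, 10.7, 9.6 and 9.1 in the WT libraries and 17.1, 14.8, 13.6, 18.7 and 23 in the LFABP-/- libraries, with WT and LFABP-/- mice meeting at 13.6 and a difference of 0.66 ± 0.16 (adjusted p = 0.12). Pnpla3 and Mlxipl had differences of 0.84 ± 0.29 and 0.50 ± 0.18 (adjusted p = 0.278 and 0.309). Over the 31 genes differences ran from -0.66 (Acacb) to 0.97 (Agpat2), with a median of 0.15 beside 0.05 over all genes.

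Markers of several cell types shared a direction of difference in iWAT, but only the macrophage markers separated the genotypes. Of 12 macrophage markers 0 had a positive difference, 9 had an unadjusted p under 0.05 and 1 (Adgre1) was called lower by limma. Their mean log2 was 5.81 to 6.83 in WT and 5.32 to 5.67 in LFABP-/- libraries, without overlap. Of the 8 brown adipocyte markers, 7 were tested, all 7 with a positive difference (median 1.56) and 0 called by limma (2 at an unadjusted p under 0.05), while Zic1 was at most 0.1. Their mean log2 was 1.46 to 2.95 in WT and 2.54 to 5.93 in LFABP-/- libraries, which overlapped. All 19 lymphocyte and all 20 skeletal muscle markers also had a positive difference, with 0 called by limma and 0 at an unadjusted p under 0.05. The part of these lists in the levels of the lipogenic genes was not tested except as given next.

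Dgat2 and Fasn, both abundant in iWAT, varied widely between mice there. Dgat2 was 2736.6, 1419.6, 1224.3, 797.5 and 1088.3 in the WT libraries and 2684.3, 1285.6, 1983.7, 1962.8 and 3529.3 in the LFABP-/- libraries, a difference of 0.70 ± 0.35 with an adjusted p of 0.547. Fasn was 1850.0, 1931.6, 1096.4, 736.3 and 1228.2 in the WT libraries and 1484.2, 1631.8, 922.9, 948.4 and 2966.9 in the LFABP-/- libraries (0.17 ± 0.36, adjusted p = 0.962). WT replicate 4, the library with the highest lymphocyte markers, had the lowest WT value of Fasn, Slc25a1, Me1, Acaca, Dgat2, Dgat1 and Agpat2. With the mean log2 of the lymphocyte markers as a covariate, 6 of 31 genes were called (Agpat2, Lpin3, Mlxipl, Pnpla3, Dgat2 and Aacs), all higher in LFABP-/- mice. This stood beside 3.68% of all genes called higher in that fit, where calls over all genes rose from 213 to 540 higher and 762 lower. With the 5 libraries over the marker limit left out, none passed in limma. Library weights gave 13 calls (6 higher and 7 lower), beside 49.8% of all genes called higher and 12.6% called lower under these weights. In the fit of all 30 libraries, Agpat2 and Lpin3 were called in iWAT (adjusted p = 0.00109 and 0.0132 by limma). Without the library labelled LFABP-/- replicate 1, 0 of 31 were called, as with it.

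Whether the genotype difference itself differed between tissues was tested as an interaction in the fit of all 30 libraries. Between iBAT and iWAT it differed for 8 of 31 genes (11.2% of all genes), between iBAT and liver for 12 (15.1% of all genes), and between iWAT and liver for 0 (3.54% of all genes). The 8 and the 12 include Elovl2 and Fads2, and the 12 also Fads1, whose iBAT values followed the hepatocyte markers. Fewer genes passed in both contrasts with the liver product subtracted, as given below. The clearest contrast against iWAT was Dgat1, whose log2 difference was 0.97 in iBAT and -0.33 in iWAT, an interaction of 1.30 ± 0.23 (adjusted p = 0.00122 by limma). Lpin3 was -0.48 in iBAT and 0.66 in iWAT (-1.14 ± 0.22, adjusted p = 0.00216). Mlxipl, the gene of ChREBP, was -0.62 and 0.50 (-1.12 ± 0.25, adjusted p = 0.00609). Against liver, Aacs had differences of -0.82 in iBAT and 0.90 in liver, an interaction of -1.73 ± 0.35 (adjusted p = 0.00199), and was called in both tissues with opposite sign. Mogat1 (-1.25 ± 0.35), Gpam (-0.85 ± 0.29), Lpin2 (1.25 ± 0.29) and Dgat1 (0.85 ± 0.23) also differed between iBAT and liver. Agpat2 differed in size between iBAT and liver (0.73 ± 0.25, adjusted p = 0.0583) and had a positive difference in every tissue. Acly passed in iBAT and liver, and its interaction between them was 0.21 ± 0.47 (adjusted p = 0.871).

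Within gene families, the share of each isoform in the summed value of its family does not depend on the scaling of a library. Agpat2 held 69.2 ± 5.73% in WT and 82 ± 3.37% in LFABP-/- mice of the AGPAT total (Agpat1, Agpat2, Agpat3 and Agpat5) in iWAT (mean ± SD, n = 5), 76.4 ± 2.65% in WT and 86.4 ± 1.34% in LFABP-/- mice in iBAT and 56.1 ± 3.4% in WT and 65.8 ± 3.14% in LFABP-/- mice in liver. Over mice this was 62.5 to 76.4% against 78.4 to 86.8% in iWAT and 73 to 79.5% against 84.4 to 87.9% in iBAT, neither with overlap, and 53.2 to 61.8% against 61.5 to 70.4% in liver, where the ranges overlapped slightly. Dgat1 held 13.5 ± 4.89% in WT and 24.2 ± 3.02% in LFABP-/- mice of the DGAT total in iBAT (8.31 to 19.2% against 21.1 to 28.9%). In iWAT it held 15.8 ± 5.54% in WT and 8.52 ± 3.94% in LFABP-/- mice, with overlap (7.9 to 23.5% against 5.53 to 15.3%). Acaca held 32.4 ± 4.07% in WT and 45 ± 6.86% in LFABP-/- mice of the acetyl-CoA carboxylase total in iBAT, with overlap (27.1 to 36.1% against 34.2 to 51.6%). Lpin3 held 3.58 ± 0.237% in WT and 1.72 ± 0.292% in LFABP-/- mice of the lipin total in iBAT, without overlap (3.39 to 3.99% against 1.36 to 2.09%).

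**Figure D5:**
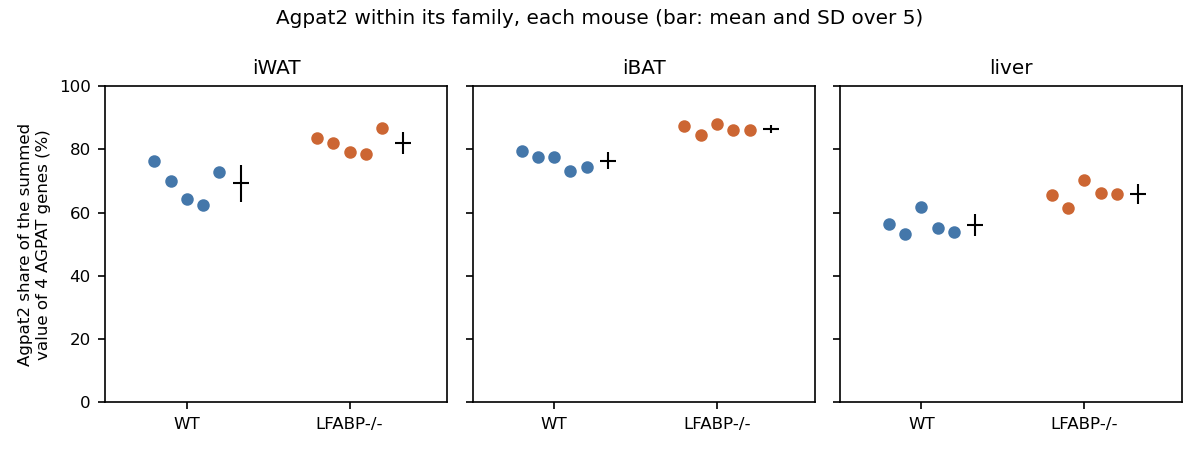
Share of Agpat2 in the summed value of Agpat1, Agpat2, Agpat3 and Agpat5 (y axis, percent from 0 to 100) in each library of iWAT, iBAT and liver, with points in replicate order and the mean and SD over 5 mice beside them. The share is higher in LFABP-/- than in WT mice without overlap in iWAT and iBAT, and the ranges overlap slightly in liver.

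The leading isoform was often another one in another tissue. In WT mice Fads3 held 85.2 ± 4.49% of the Fads total in iWAT and Fads2 69.4 ± 0.795% in liver. Elovl6 was 81.9 ± 3.17% of the 5 elongases in WT iBAT, Elovl5 50.8 ± 5.68% in iWAT, and in liver Elovl2 (51.1 ± 3.35%) and Elovl5 (42.9 ± 2.97%) shared the total. In liver the Elovl2 share over mice was 48 to 56% in WT and 29.1 to 48.2% in LFABP-/- mice, and the ranges overlapped slightly. Lpin1 was 93.6 ± 1.11% of the lipin total in WT iBAT, whereas Lpin2 was 51.9 ± 8.31% in WT liver.

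Acly, Thrsp and Agpat2 were called higher in both iBAT and liver, and their promoters are shown as the regulatory sequence of the genes that moved together. The windows run from 250 bases before to 50 bases after the start of the RefSeq transcript (RefSeq, GRCm38.p6, 300 bases, all on the minus strand, written 5′ to 3′ along the gene), and capitals mark each match to CCAAT, on either strand, as the only motif of the 3 searched that they held.
Acly, chr11:100527951-100528250: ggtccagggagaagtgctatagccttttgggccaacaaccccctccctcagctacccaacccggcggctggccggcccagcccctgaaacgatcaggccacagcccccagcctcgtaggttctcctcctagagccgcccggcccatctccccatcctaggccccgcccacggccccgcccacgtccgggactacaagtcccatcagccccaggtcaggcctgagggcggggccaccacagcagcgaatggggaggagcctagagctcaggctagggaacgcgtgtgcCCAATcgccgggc
Thrsp, chr7:97417501-97417800: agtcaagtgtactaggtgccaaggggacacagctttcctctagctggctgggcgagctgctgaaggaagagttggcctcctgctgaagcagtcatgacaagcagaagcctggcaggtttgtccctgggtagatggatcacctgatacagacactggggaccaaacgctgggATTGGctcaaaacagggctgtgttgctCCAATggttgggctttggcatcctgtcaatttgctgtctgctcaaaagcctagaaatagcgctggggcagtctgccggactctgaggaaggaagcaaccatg
Agpat2, chr2:26604368-26604667: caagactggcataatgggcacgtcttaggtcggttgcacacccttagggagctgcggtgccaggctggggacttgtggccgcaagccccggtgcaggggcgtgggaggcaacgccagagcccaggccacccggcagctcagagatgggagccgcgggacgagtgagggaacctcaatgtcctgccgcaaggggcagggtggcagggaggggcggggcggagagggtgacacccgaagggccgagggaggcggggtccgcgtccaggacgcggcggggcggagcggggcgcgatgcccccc
Acly held 1 match to CCAAT, Thrsp 2 and Agpat2 none in these windows. The match of Acly lay within the 50 bases after the transcript start. Over the 22 genes called in any tissue, 19 had an entry, with 26 windows, of which 12 (46.2%) held CCAAT, 5 (19.2%) the E-box CACGTG and 1 (3.85%) the sterol regulatory element TCACNCCAC, each searched on both strands. Of all 32851 windows of the same length, 37.4%, 7.15% and 1.24% held them. The 5 windows with an E-box, the core of the element that ChREBP binds, belonged to Slc25a1, Mlxipl, Elovl5, Lpin2 and Lpin3, and the window with the sterol regulatory element belonged to Mlxipl. These genes moved in both directions in iBAT, and a match describes the letters of the window and no binding.

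Whether the transcription factors and the enzymes varied together between mice was tested after removing the genotype means, over 10 mice in each tissue and 6 relations. Mlxipl and the mean log2 of Acly, Acaca, Fasn, Me1 and Elovl6 had r = 0.80 and rho = 0.84 in iWAT (permutation p = 0.0139 and 0.0105, exact over 14400 permutations within genotype, adjusted p = 0.0833 and 0.0492), and r was 0.70 without the 2 mice farthest from the median of Mlxipl. In iBAT it had r = 0.62 and rho = 0.72 (exact permutation p = 0.117 and 0.0164, adjusted 0.142 and 0.0492; r = 0.82 without the 2 farthest). In liver r was 0.58 and rho 0.61 (exact permutation p = 0.119 and 0.108, adjusted 0.142 and 0.146). For Srebf1 the relation in iWAT had r = 0.23 and rho = 0.39 (adjusted p = 0.528 and 0.273 by exact permutation). For iBAT these were 0.60 and 0.58 (adjusted p = 0.142 and 0.146 by exact permutation), and for liver 0.67 and 0.76 (adjusted p = 0.142 and 0.0872 by exact permutation). The prefixes in the library names split iBAT and liver into 5 and 5 libraries. In iWAT they held 6, 3 and 1, with all 5 WT libraries under 1 prefix and 4 of the 5 LFABP-/- libraries under the others. No relation was computed within a prefix, since no prefix held more than 5 libraries of 1 tissue other than that of the 6, which has a single LFABP-/- library, and the part of the lymphocyte markers in iWAT was not tested.

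Of 40 further genes of the pathway, 37 were tested in iBAT, where 20 were higher and 7 lower in LFABP-/- mice, beside 22.3% and 25.5% of all genes. Those with the smallest p were Scd2, a stearoyl-CoA desaturase (27.9 ± 10.9 to 146 ± 41.2, adjusted p = 0.000148), Pgd and G6pdx, which make NADPH in the pentose phosphate pathway (86.5 ± 15.4 to 162 ± 25.6, adjusted p = 0.000883, and 102 ± 15.7 to 181 ± 26.4, adjusted p = 0.000985), and Elovl4 (0.56 ± 0.167 to 2.3 ± 0.8, adjusted p = 0.00093). Elovl4, counted in the 20, is near 0 and entered the test only through its LFABP-/- values. A difference was therefore built into its selection by the filter. In liver 2 of 36 were higher and 4 lower (3.08% and 13.9% of all genes), led by Mlycd, malonyl-CoA decarboxylase (113 ± 11.1 to 83.7 ± 5.56, adjusted p = 0.0162), Lpgat1 (71.4 ± 15.4 to 47.4 ± 4.57, adjusted p = 0.033), Mlx, the partner of ChREBP (30.7 ± 1.39 to 38.5 ± 4.04, adjusted p = 0.0437), and Scap, the escort of the sterol-regulated transcription factors (66.4 ± 10.05 to 50.2 ± 6.9, adjusted p = 0.0679). In iWAT 2 of 35 were higher and 0 lower by limma, beside 0.682% and 0.770% of all genes, with 3 of 35 at an unadjusted p under 0.05. The 2 were Mid1ip1, a relative of Thrsp (51.9 ± 7.73 to 109 ± 34.3, adjusted p = 0.0731), and Insig1, a sterol-induced anchor of Scap (187 ± 72.9 to 464 ± 148, adjusted p = 0.0781).

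Cholesterol synthesis, which shares acetyl-CoA with the fatty acid branch, was counted beside it over 21 genes. In iBAT 14 were higher and 0 lower, beside 22.3% and 25.5% of all genes, led by Hmgcs1 (76.7 ± 13.3 to 165 ± 23.4, adjusted p = 0.000264), Hsd17b7 (2.88 ± 0.421 to 6.22 ± 1.09, adjusted p = 0.000386), Fdps (15 ± 2.08 to 31.6 ± 6.49, adjusted p = 0.000545) and Pmvk (42 ± 5.09 to 70.6 ± 11.2, adjusted p = 0.000918). In iWAT Hmgcs1 (105 ± 50.3 to 240.2 ± 63.6, adjusted p = 0.0895) and Sc5d (51.7 ± 14.1 to 113 ± 31.1, adjusted p = 0.061) were higher (2 of 21, beside 0.682% of all genes) and 19 of 21 had a positive difference, with a median of 0.75 beside 0.05 over all genes. Their part in the levels of the lipogenic genes was not tested. The hepatocyte markers were also higher in LFABP-/- iBAT. Whether the iBAT calls of the cholesterol genes and of the further pathway genes depend on them was not tested.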

How the data were processed

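RNA from iWAT, iBAT and liver of 5 WT and 5 LFABP-/- mice was sequenced as poly(A) libraries with single reads of 100 bases. Per the labels and the study's methods, the authors mapped reads in CLC Genomics Workbench to GRCm38 with Ensembl release 92 and deposited 1 table of normalised values headed RPKM. The deposited columns headed RPKM summed to 999967.3 to 999996.4 in each library and fell with exon length as TPM values do (slope -0.95 of log2 value on log2 length over 76 ribosomal protein genes), so they were read as TPM, which keep no depth: the depth per library is unknown, and counting error could not be given. With 1 share scale per library, a rise of abundant transcripts lowers all others.

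Groups came from the sample labels. The members and gene lists were chosen with earlier results of these data known. Within each tissue, log2(value + 0.5) was tested with limma 3.58.1 (R 4.3.3; empirical Bayes with an intensity trend) over all genes with a mean of at least 1, with Benjamini-Hochberg adjustment and a call at an adjusted p under 0.1. P-values measure the spread between mice of 1 study. Tissue contrasts and interactions came from a joint limma fit of the 30 libraries, in which the mouse was a random block (within-mouse correlation -0.0151), and contrasts between WT tissues also needed a difference over 1. Exact permutation tests were two-sided over all 252 splits of 10 mice. Called genes are given with every library, others by levels, and of each further list at most 4 called genes with the smallest p are named. The genotype tests within each tissue and the interaction between iBAT and iWAT were checked on simulated data, and the other contrasts were not. Alternatives were pseudocounts of 0.1 and 1, no filter or a mean of 20, quantile or median-ratio scaling, values rescaled once mitochondrial genes were removed, no trend, a threshold of 0.05, library weights, the replicate number as a block, the name prefix of the mouse (from its iBAT and liver names), leaving out each library, and marker levels as covariates or limits. The alternatives on hepatocyte markers, the liver product, skeletal muscle markers in iBAT and the separate spread of each tissue were chosen after seeing the data. Other tools were Python 3.11.15, numpy 2.4.6, pandas 2.3.3, scipy 1.17.1 and matplotlib 3.10.9.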

Additional observations from a re-analysis of the deposited data

Results flagged for a closer look

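In 4 of the 54 groups of 5 libraries behind the called genes, 1 library lay far from the other 4 by Dixon's test, where chance gives about 1 in 20. These were Acss2 in iBAT of LFABP-/- replicate 1 (116.8), Mlxipl in iBAT of WT replicate 5 (63), Lpin2 in iBAT of LFABP-/- replicate 5 (3.1) and Dgat1 in iBAT of WT replicate 2 (151.4).

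The genotype difference of a gene differed between iBAT and iWAT by the interaction term in limma, given as log2 difference of the differences, iBAT minus iWAT, for Elovl2 (2.82), Fads2 (1.44), Dgat1 (1.30), Fads3 (1.23), Elovl5 (0.98), Aacs (-1.09), Mlxipl (-1.12) and Lpin3 (-1.14). Between iBAT and liver, as iBAT minus liver, it differed for Elovl2 (3.02), Fads2 (1.99), Fads3 (1.73), Fads1 (1.34), Lpin2 (1.25), Elovl5 (0.87), Dgat1 (0.85), Agpat2 (0.73), Agpat3 (0.37), Gpam (-0.85), Mogat1 (-1.25) and Aacs (-1.73). The iBAT values of Elovl2, Fads2 and Fads1 followed the hepatocyte markers, as given above. With the liver product subtracted from the adipose libraries, 6 and 9 genes passed the threshold in these contrasts in place of 8 and 12.

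The hepatocyte markers, which belong to no comparison of the pathway, reached a mean log2 of 5.9 in the highest LFABP-/- library of iBAT and 2.16 in the highest WT library. The source of these transcripts was not tested.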

How the results depend on the processing

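In iBAT the count of called genes was 14 to 23 over all alternatives run (21 in the report) except with the hepatocyte markers as a covariate, where it was 2 and the log2 differences of Elovl2, Fads1 and Fads2 turned to -0.081, -0.24 and -0.026. In the fit of all 30 libraries Thrsp, Lpin1 and Acacb lost the call. The difference of Fads2 also turned, to -0.517, with the liver product subtracted. In liver, where 6 genes were called, 3 were called after rescaling without mitochondrial genes, 2 at an adjusted p under 0.05, and 1 to 8 when each library was left out, the 1 without WT replicate 2. In iWAT, where 0 genes were called, 13 were called with library weights, 6 with the lymphocyte markers as a covariate, 2 in the fit of all 30 libraries, and 0 to 2 when each library was left out, the 2 without WT replicate 1. Interactions between iBAT and iWAT numbered 5 at an adjusted p under 0.05 and 5 to 10 with each mouse left out (lowest without replicate 2 or 3 of either genotype), and those between iWAT and liver 0 to 3 (highest without WT replicate 4). With the spread of each tissue kept apart, 6 interactions passed for iBAT against iWAT, 15 for iBAT against liver and 0 for iWAT against liver. The relation of Mlxipl with the enzymes in iWAT passed with median-ratio scaling (r = 0.88, exact permutation, adjusted p = 0.0279). Over the called genes and alternatives, 528 of 558 values in iBAT and 98 of 138 in liver kept both direction and call, and 26 and 40 lost the call in the same direction. The cause of these changes was not tested.

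Replicate numbers paired no WT with an LFABP-/- mouse, and correlations of same-numbered libraries ran from -0.53 to 0.67. With the replicate number as a block, 1 gene was called in iWAT (Agpat2, adjusted p = 0.0107 by limma), 22 in iBAT and 4 in liver, where Acly and Thrsp were lost (adjusted p = 0.111 and 0.149 by limma). Without the mouse as a block, 9, 12 and 0 interactions passed for iBAT against iWAT, iBAT against liver and iWAT against liver. Depth is unknown, so genes near 0, such as Elovl7, are limited to a level.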
